A study of Mus musculus with 6 samples.

Results

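Genes through which neurons read hormonal and peptide signals of energy balance were followed in single cells of the mouse hypothalamus. The cells were sorted through a driver active in the ventromedial hypothalamus (VMH), and not all of them need be VMH cells. The genes are Lepr, Insr, Irs4, Mc3r, Mc4r, Npy1r, Npy2r, Npy5r, Cckar and Cnr1, 10 genes chosen by name. All 10 were among the 21926 genes of the count tables. The cells came from 3 female and 3 male mice at postnatal day 10, all of genotype Ai14f/+;Sf1-Cre, with no treatment named. In that cross a fluorescent reporter is switched on by the Sf1 (Nr5a1) driver, so both sexes share the reporter and the driver and the sort takes cells with a past or present of Sf1-Cre activity. The dissection was a rough one of the hypothalamus, and each mouse filled 1 plate of 96 wells. Of 576 wells, 530 had counts in at least 500 genes and under 25% of counts in mitochondrial (mt-) genes. The other 46 failed on the number of genes, and they held 0 counts of the 10 genes.

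Lepr encodes the receptor for leptin, the hormone of fat tissue, and Insr encodes the insulin receptor, whose signal passes through docking proteins such as Irs4. Mc3r and Mc4r encode receptors for melanocortin peptides cut from the Pomc precursor, while Npy1r, Npy2r and Npy5r encode receptors for neuropeptide Y and peptide YY. Cckar encodes a receptor for cholecystokinin, a gut and brain peptide, and Cnr1 the CB1 cannabinoid receptor, found mainly on axon terminals. The VMH is a mostly glutamatergic nucleus known for its part in glucose control, feeding and energy expenditure. The series title places the data in work on estrogen receptor alpha and a sex difference in energy expenditure.

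The kept wells of a mouse numbered 84 to 93, and their summed depth ran from 185654 counts in female 2 to 783270 in male 1. Female 2 stood apart, with a median of 2097 counts per well against 5170 to 7979.5 in the other 5 mice. A list of 6 general neuron genes had a count in 97.4% of the kept wells, and a list of 7 VMH neuron genes in 77.7%. Wells with more astrocyte than neuron counts numbered 9, at a median of 973 counts per well against 5972 in the others, and they held no count of any of the 10 genes, which allows a share of up to 33.3% of such wells. The astrocyte list summed to 177 CPM (its counts over all counts of the mouse, scaled to parts per 1e+06) in female 1 and to 3.87 to 21.7 CPM in the other mice. All plates use the same 96 well names, and no pair of kept wells held identical counts.

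The 10 genes were rare in these cells. They held 565 of 3312091 counts, or 0.0171%, and 280 of the 530 wells (52.8%) had a count of at least 1 of them. Since most detections were of a single count, the share of wells with a count (the detection share) depends on how deeply a well was sequenced, and an undetected gene is not an absent one. Wells with a count of Irs4 had a median of 7834 counts in all, against 5234 in wells without one. Shares were therefore also computed after each well was thinned to 1986 random counts, which left out 53 shallower wells, 38 of them from female 2. Intervals given for shares of wells are exact 95% binomial intervals and cover counting error only.

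**Figure D1:**
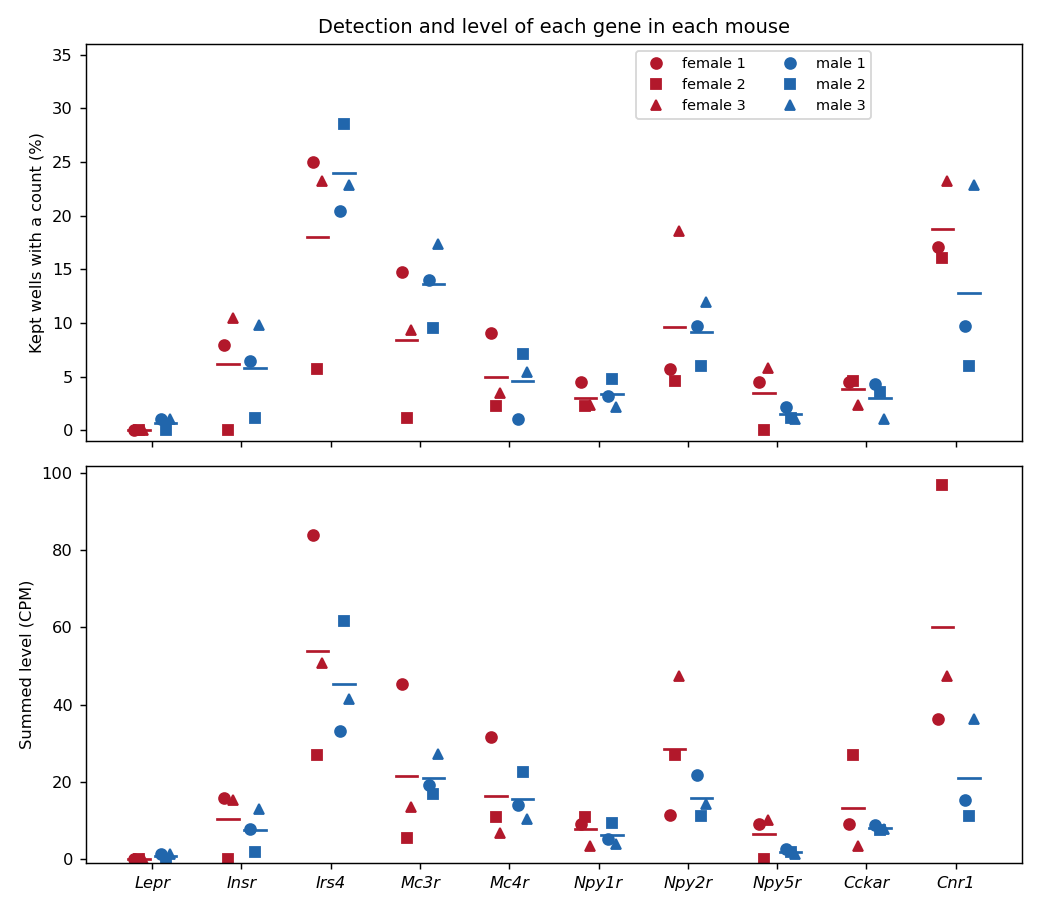
Share of kept wells with a count (upper panel, percent) and summed level (lower panel, CPM) of the 10 genes in each of the 6 mice. Each point is 1 mouse, the short lines are means of the 3 females or 3 males, and Irs4 and Cnr1 have the highest mean shares while Lepr lies at or near 0 in every mouse.

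Lepr was almost undetected, with 1 count in a well of male 1, 1 in a well of male 3 and none in the other 4 mice. Its share of 0.377% (0.0457 to 1.36) of wells was the lowest of the 10 genes. In the mice without a count, 0 wells allow a share of up to 3.41 to 3.57%. The well of male 1 also held 26 Tac1 counts and 2 each of Nr5a1 and Pdyn, and the well of male 3 held 4 Pdyn counts and 1 of Gad1.

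Irs4, on chromosome X (141710998 to 141725263, minus strand, GRCm38), was the most often detected. It had a count in 25, 5.75 and 23.3% of wells of females 1 to 3 and in 20.4, 28.6 and 22.8% of wells of males 1 to 3. Female 2, the shallow plate, was the low one, and the 5 others lay close together. In 74 of the 111 Irs4 wells there was a single count, and the highest was 5. Insr, the receptor upstream of this docking protein, was far less frequent, with a count in 7, 0 and 9 wells of the females and 6, 1 and 9 wells of the males. All but 1 of its 32 wells had a single count, and both low plates were those numbered 2.

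The melanocortin receptors differed in how their counts were spread over wells. Mc3r (chromosome 2, 172248492 to 172251114, plus strand) was in 59 wells, at 13, 1 and 8 wells of the females and 13, 8 and 16 of the males, and never above 3 counts. Mc4r was in 25 wells, at 8, 2 and 3 wells of the females and 1, 6 and 5 of the males, yet 1 well of male 1 held 11 counts and 1 of male 2 held 6. These 2 wells held 17 of its 51 counts. Both were rich in Tac1, with 10 and 8 counts, and the first also held 6 Sst counts.

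Npy2r, a presynaptic receptor preferring peptide YY and the C-terminal fragments of neuropeptide Y (chromosome 3, 82538383 to 82548084, minus strand), was the most frequent of the neuropeptide Y receptors. It had a count in 5, 4 and 16 wells of the females and 9, 5 and 11 of the males, so female 3 was highest, at 18.6% of wells against 4.60 to 12% in the others. Npy1r was in 17 wells and Npy5r in 13. These genes are neighbours on chromosome 8, Npy5r at 66679965 to 66688128 on the minus strand and Npy1r at 66697192 to 66706792 on the plus strand, 9.064 kb apart. Neither had more than 2 counts in any well. Cckar was in 18 wells, from 1 in male 3 to 4 in females 1 and 2 and male 1, and the single well of male 3 held 6 counts.

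Cnr1 (chromosome 4, 33924593 to 33948831, plus strand) was the second most frequent. It had a count in 17.0, 16.1 and 23.3% of wells of the females and 9.68, 5.95 and 22.8% of the males. Female 2 was not low here, although it was the shallowest plate. Over all mice, 64 of its 84 wells held a single count and none held more than 3.

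Between genes, levels were compared per kilobase of exon, as CPM per kb in each mouse. Mc3r was highest (8.09 ± 5.25 CPM per kb, SD, n = 6 mice), followed by Irs4 (7.88 ± 3.31), Npy2r (6.54 ± 4.09), Cnr1 (6.29 ± 4.79) and Mc4r (5.71 ± 3.34). Lower levels were those of Cckar (2.88 ± 2.25), Npy1r (2.00 ± 0.919), Npy5r (1.63 ± 1.69), Insr (0.649 ± 0.498) and Lepr (0.0607 ± 0.0941). Neighbours in this order differed by less than the larger of their SDs over mice, except Insr and Lepr. How counts fall along a gene was not analysed here, so the order per kb holds only if counts scale with exon length. Without that division Irs4 was highest (49.6 ± 20.8 CPM, SD, n = 6 mice), followed by Cnr1 (40.5 ± 30.9), Npy2r (22.1 ± 13.8) and Mc3r (21.2 ± 13.8).

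**Figure D2:**
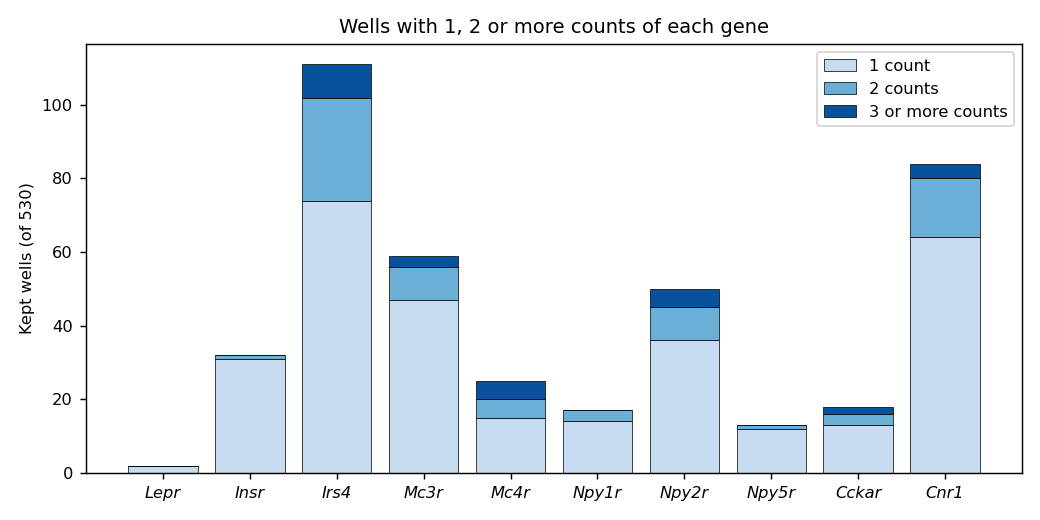
Number of kept wells (vertical axis, of 530) with 1, 2 or at least 3 counts of each gene. Single counts form most of every bar; Irs4, with 111 wells, has 9 with at least 3 counts, and Mc4r has 5 among 25.

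Between the sexes, no gene of the 10 passed the test. Counts were summed over the kept wells of each mouse and tested with edgeR's quasi-likelihood test, Benjamini-Hochberg adjusted over all genes tested. At an adjusted p under 0.05, 0 of 6794 genes that passed the filter on low counts were called (0%), 167 had an unadjusted p under 0.05, and DESeq2 called 4. Of the 10 genes, Irs4, Cnr1, Mc3r and Npy2r passed the filter, and 0 of these 4 were called by either tool. With no filter the test called 20 of 15220 genes (0.131%) and none of the 10.

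Cnr1 was the only one of the 10 genes whose summed levels did not overlap between the sexes. Its level was 36.3, 97.0 and 47.3 CPM in the females and 15.3, 11.2 and 36.1 CPM in the males, higher in every female than in any male, with female 1 and male 3 nearly equal. The means were 60.2 ± 32.3 and 20.9 ± 13.4 CPM (SD, n = 3 mice each), with a two-sided p of 0.1 from an exact permutation of the mice, the smallest that 3 against 3 allow. edgeR gave a log2 change, male over female, of -1.35 (SE 0.518, unadjusted p = 0.0257, adjusted p = 0.999). On this measure 8.06% of 15220 genes had sexes that did not overlap. By ratio the gap of Npy5r was wider, at 6.40 ± 5.57 CPM in females and 1.90 ± 0.632 in males with overlap (unfiltered log2 change -1.83, edgeR adjusted p = 0.950).

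The detection share of Cnr1 in thinned wells was 10.7 ± 1.48% for females against 3.76 ± 2.76% for males (SD, n = 3), again without overlap (exact permutation p = 0.1, two-sided). It was the only one of the 10 genes whose sexes did not overlap on thinned shares, where 6.95% of 13566 genes did not overlap. Before thinning the shares were 18.8 ± 3.89 and 12.8 ± 8.86% and overlapped (exact permutation p = 0.3). Of 6 neuron markers used below, Tac1, the gene of the substance P precursor, also had summed levels without overlap, at 1017 ± 174 CPM in females and 620 ± 204 in males. The 5 others overlapped, with Nr5a1 at 99.1 ± 55.5 and 64.0 ± 14.3 CPM, Sst at 1204 ± 763 and 858 ± 574, and Gad1 at 30.7 ± 32.0 and 20.6 ± 12. Pdyn (194 ± 124 and 236 ± 45) and Pomc (423 ± 692 and 537 ± 357) had the higher mean in males. By unthinned share of wells, Sst did not overlap and was the higher in males, at 22.6 ± 2.78% against 16.1 ± 1.07%. The part of these differences in the Cnr1 values was not tested. Without the shallow female 2 the log2 change of Cnr1 was -0.94 (edgeR adjusted p = 0.918).

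For the 9 others the sexes overlapped on CPM, on shares and on thinned shares, with exact permutation p of 0.3 to 1 on CPM (n = 3 mice each). Mc3r was at 21.4 ± 21.1 CPM in females and 21.0 ± 5.40 in males, Irs4 at 53.8 ± 28.6 and 45.4 ± 14.6, and Npy2r at 28.5 ± 18.0 and 15.7 ± 5.41. Mc4r was at 16.4 ± 13.4 and 15.6 ± 6.19 CPM.

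The wells were next grouped by whether they held a count of a neuron marker. Nr5a1 encodes the SF-1 transcription factor of VMH neurons, Tac1, Pdyn and Sst encode the precursors of substance P, dynorphin and somatostatin, Pomc the melanocortin precursor, and Gad1 an enzyme that makes GABA. A count was found in 156 wells for Nr5a1, 193 for Tac1, 224 for Pdyn, 103 for Sst, 69 for Pomc and 35 for Gad1. A well can belong to several groups. Tac1-detected wells were the deeper ones in every mouse, with a pooled median of 7156 against 5077 counts, and so were the Nr5a1-, Pdyn- and Pomc-detected ones. Sst-detected wells were shallower than the undetected ones in 4 of 6 mice, and Gad1-detected wells in 3 of the 5 mice used. Levels were therefore compared as CPM of sums per mouse, with the mouse as a block. For Gad1, female 2 had 2 such wells, under the minimum of 3, and was left out.

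**Figure D3:**
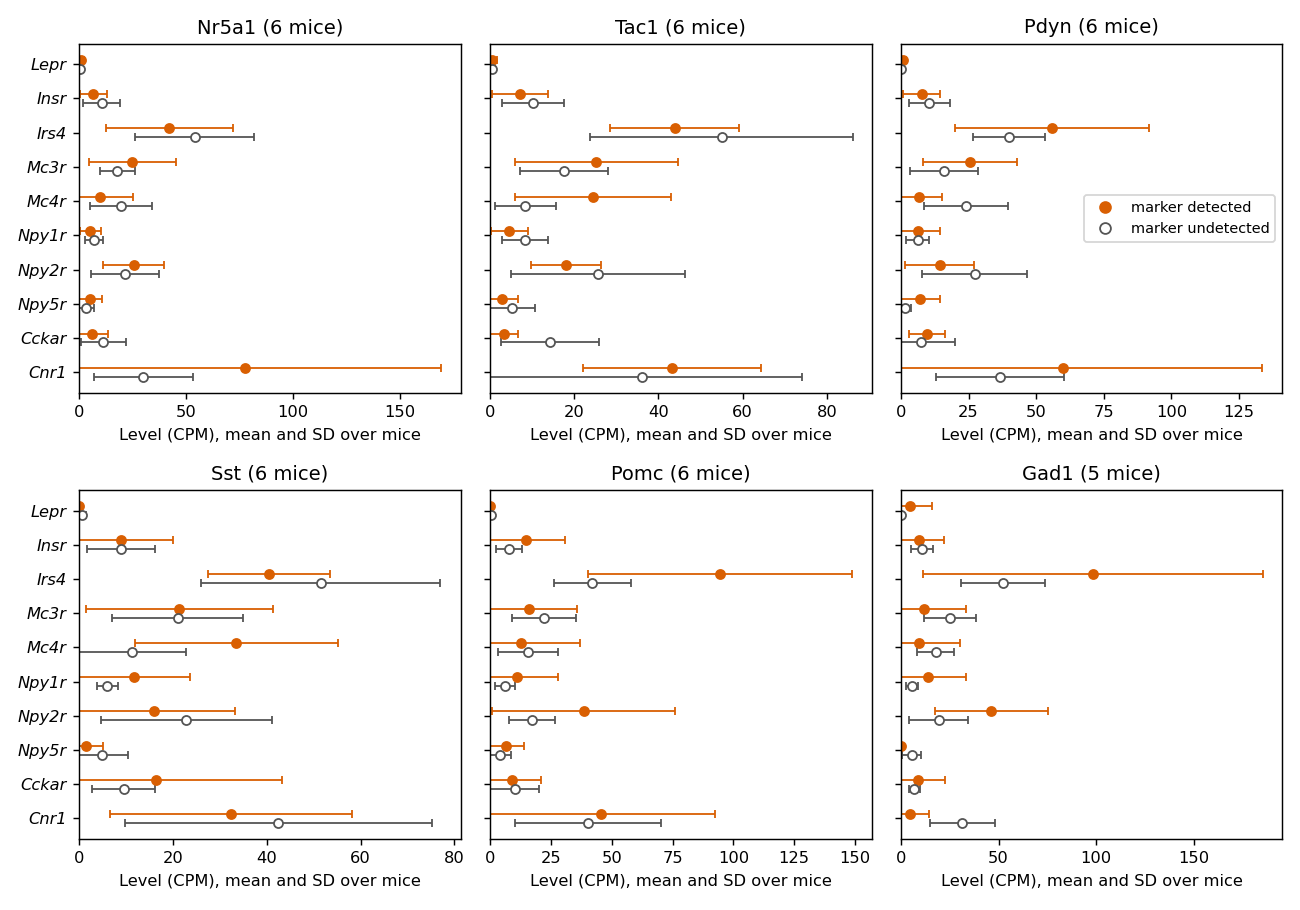
Level (CPM) of the 10 genes in marker-detected (filled) and marker-undetected wells (open), 1 panel per marker. Points are means and bars SDs over mice (6, or 5 for Gad1), with bars ended at 0; the bars are long and overlap for Mc4r with Tac1 (24.5 ± 18.5 against 8.31 ± 7.24 CPM) and with Pdyn (6.79 ± 8.55 against 24.1 ± 15.4), while those of Cnr1 with Gad1 lie just apart (4.43 ± 9.90 against 31.3 ± 16.7).

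Few of the 10 genes had enough counts in both groups for the filter. Irs4 and Cnr1 were tested against Tac1, and Irs4 alone against Pdyn and against Gad1. None was called by edgeR or DESeq2, and 2 of these 4 tests had an unadjusted p under 0.05 in edgeR. The shares of all tested genes that edgeR called were 1.27% for Nr5a1, 0.911% for Tac1, 1.81% for Pdyn, 0.220% for Sst, 0.799% for Pomc and 0.793% for Gad1. The smallest adjusted p of a tested member was 0.261, for Irs4 in Pdyn-detected wells (log2 change 0.61, SE 0.241, unadjusted p = 0.0149). Irs4 had a count in 29.9% (24.0 to 36.4) of Pdyn-detected and 14.4% of undetected wells, but thinned the shares were 9.13 and 7.75%. The other was Cnr1 in Tac1-detected wells (log2 change 0.62, SE 0.307, edgeR adjusted p = 0.582).

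Values for the others come from the same fits with no filter, which tested 15143 to 15219 genes and called 0.342% of them for Nr5a1, 0.486% for Tac1, 0.618% for Pdyn, 0.118% for Sst, 0.269% for Pomc and 0.535% for Gad1. In these fits 1 of the 10 genes was called against Tac1 and 1 against Pdyn, and it was Mc4r in both. The called shares were 0.145% of genes higher with Tac1 and 0.237% lower with Pdyn. None was called against the other 4 markers.

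Mc4r was higher in Tac1-detected wells. Its level there was 47.2, 0 and 12.3 CPM in females 1 to 3 and 33.3, 40.3 and 13.8 CPM in males 1 to 3. In the Tac1-undetected wells of the same mice it was 17.4, 14.6 and 0 CPM, then 0, 9.61 and 8.25 CPM. It was higher with Tac1 in 5 of 6 mice, all but the shallow female 2, at 24.5 ± 18.5 against 8.31 ± 7.24 CPM (SD, n = 6). The log2 change was 1.86 (SE 0.445, edgeR adjusted p = 0.00921). The call rests on 51 counts, of which 38 were in Tac1-detected wells, and was lost without the 2 wells of male 1 and male 2 that held 11 and 6 of them (0.98, adjusted p = 0.981). It was also lost without male 1 (1.40, adjusted p = 0.433) or male 2 (1.81, adjusted p = 0.117), without the mouse block (1.82, adjusted p = 0.913) and after thinning (1.45, adjusted p = 0.998).

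Against Pdyn, Mc4r went the other way. It was at 6.79 ± 8.55 CPM in Pdyn-detected and 24.1 ± 15.4 CPM in undetected wells (SD, n = 6), lower in 5 of 6 mice, with male 3 the exception at 11.9 against 7.34 CPM. The log2 change was -1.64 (SE 0.453, edgeR adjusted p = 0.0465). Neither of its 2 richest wells held a Pdyn count, and without them the change was -0.79 (adjusted p = 0.978). The call was also lost without female 1 (adjusted p = 0.0908), female 3 (0.175), male 1 (0.989) or male 2 (0.279), with 2 or more Pdyn counts (0.0613), after thinning (1.00) and without the mouse block (0.870). By detection share there was little difference, at 4.46% of Pdyn-detected and 4.90% of undetected wells.

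For Sst the same gene came nearest to a call, with a log2 change of 1.69 (SE 0.450, adjusted p = 0.0897). It had a count in 11 of 103 Sst-detected wells (10.7%, 5.45 to 18.3) and 14 of 427 others (3.28%), and its level was higher with Sst in 5 of 6 mice. Of its 25 counts in Sst-detected wells 11 came from the 1 rich well of male 1. The change was 1.30 (adjusted p = 0.858) without the 2 wells richest in Mc4r and 0.96 (0.949) without male 1. It passed with RLE size factors (0.0373), with 2 or more (0.0336) or 5 or more (0.0171) Sst counts, and without male 2 (2.38, edgeR adjusted p = 0.00517).

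Cnr1 leaned towards Nr5a1-detected wells and away from Gad1-detected ones, without a call in either. It had a count in 40 of 156 Nr5a1-detected wells (25.6%, 19.0 to 33.2) and 44 of 374 others (11.8%). Its level was higher in 5 of 6 mice, the exception being male 1 at 12.7 against 16.4 CPM (log2 change 0.95, SE 0.304, edgeR adjusted p = 0.243). Thinned, the shares were 11.8 and 4.32%, higher in 4 of 6 mice. In Gad1-detected wells Cnr1 had a count in 1 of 35 (2.86%, 0.0723 to 14.9), a well of female 3, against 83 of 495 (16.8%) elsewhere. It was lower in all 5 mice compared (log2 change -2.25, SE 0.831, adjusted p = 0.309). Npy2r leaned the other way, with a count in 10 of the 35 Gad1-detected wells (28.6%, 14.6 to 46.3) and 40 of the 495 others (8.08%). Its level was higher with Gad1 in 4 of 5 mice, at 46.3 ± 28.9 against 19.3 ± 15.2 CPM, without a call (log2 change 0.98, SE 0.526, edgeR adjusted p = 0.673). Thinned, the Npy2r shares were 5.88% (2 of 34 wells) and 3.61%, higher with Gad1 in 2 of 5 mice and lower in 3. A Pomc count was in 25.7% of Gad1-detected and 12.1% of undetected wells, and the part of this overlap in the Npy2r values was not tested.

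Mc3r was detected in 18.8% (13.9 to 24.5) of Pdyn-detected and 5.56% of undetected wells, so 71.2% of its wells held a Pdyn count. After thinning these shares were 6.39 and 3.49%, and its level was higher in 4 of 6 mice (log2 change 0.83, SE 0.365, edgeR adjusted p = 0.722). Npy5r was in 10 Pdyn-detected and 3 undetected wells and Cckar in 11 and 7. After thinning these numbers were 1 and 0 for Npy5r and 4 and 2 for Cckar. Both Lepr wells had a Pdyn count. For Npy1r and Insr, the difference between marker-detected and undetected wells was under the SD over mice of the detected wells for all 6 markers.

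The Pomc counts fell into separate ranges. Of its 69 wells, 52 held 1 or 2 counts and 17 held 36 to 207, with none between. The 17 rich wells came from female 3 (6), male 1 (3), male 2 (4) and male 3 (4). Of the 6 other genes in the list of arcuate markers, the transcription factors Tbx3 and Isl1 had a count in 14 of 17 wells each, against 1.08 and 20.4% of wells with no Pomc count. Npy had a count in 1 of the 17, and Agrp, Kiss1 and Ghrh in 0, against 0.651 to 2.17% of wells with no Pomc count. Of the 7 VMH markers, Nr5a1, Sox14 and Adcyap1 were in 2 of the 17 wells each and Gpr149 in 1, against 29.3, 33.0, 39.0 and 17.1%. Fezf1, Nkx2-2 and Fezf2 were in 0, against 40.1, 3.69 and 0.651%. The rich wells were compared with the wells of the same 4 mice that had no Pomc count.

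Npy2r was 5.27 to 13.1 times higher in the Pomc-rich wells of these mice. Its level there was 185 CPM in female 3 and 96.5, 84.2 and 66.6 CPM in males 1 to 3, against 27.0, 18.3, 6.41 and 12 CPM in the wells without Pomc. In the same order, these levels rest on only 8, 3, 3 and 2 Npy2r counts, against 12, 11, 3 and 8, so the ratios are imprecise. All 4 rich values lay above all 4 others, and the share of all genes without overlap in this comparison was not computed. The means were 108 ± 52.5 and 15.9 ± 8.83 CPM (SD, n = 4 mice), and the log2 change with no filter was 2.37 (SE 0.576, edgeR adjusted p = 0.00301). The unfiltered test called 2.77% of 14733 genes (0.292% higher) and, of the 10, Npy2r alone. With the filter it called 6.71% of 3963 genes (2.80% higher), and Npy2r had a log2 change of 2.72 (SE 0.548, adjusted p = 5.6e-05). Npy2r and Irs4 were the members that passed this filter, which reads the sums of the rich wells too, so a gene high there passes more easily and the number of members called has no weight. Cnr1, at 27.6 ± 18.3 CPM without Pomc and 0 in the rich wells, did not pass it.

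Npy2r had a count in 12 of the 17 Pomc-rich wells (70.6%, 44.0 to 89.7), against 7 of 52 wells with 1 or 2 Pomc counts (13.5%, 5.59 to 25.8) and 31 of 461 with none (6.72%, 4.61 to 9.41). The rich wells were not deeper than the middle group, at medians of 7605 and 7772 counts, though deeper than the wells with none, at 5442. Thinned, 4 of the 17 held an Npy2r count. The filtered call held without the mouse block (edgeR adjusted p = 0.0151) and without each of the 4 mice. These checks used the same filter, which a gene high in the rich wells passes more easily, so they add little to the unfiltered call (adjusted p = 0.00301). DESeq2, which did not use that filter, also called Npy2r (adjusted p = 0.00183). The call was lost in thinned wells tested with no filter (log2 change 2.17, edgeR adjusted p = 0.472). Its 16 counts in the Pomc-rich wells were 22.2% of all Npy2r counts. With any Pomc count as the class, Npy2r was higher in 5 of 6 mice, at 38.5 ± 37.7 against 17.2 ± 9.27 CPM (SD, n = 6). It was not called there (unfiltered log2 change 1.32, edgeR adjusted p = 0.134). Thinned, its shares in that comparison were 8.70 and 2.94%, higher with Pomc in 3 of 6 mice.

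Irs4 was called in the filtered fit and not in the unfiltered one (adjusted p = 0.140). It was at 208 CPM in the Pomc-rich wells of female 3, and at 0, 196 and 99.9 CPM in those of males 1 to 3, against 38.2, 31.6, 51.3 and 39.0 CPM without Pomc. Male 1, with 3 such wells, was the low one, and the groups overlapped. The means were 126 ± 96.9 and 40.0 ± 8.19 CPM (SD, n = 4; filtered log2 change 1.65, SE 0.478, edgeR adjusted p = 0.0135). The call was also lost with DESeq2 (adjusted p = 0.316), without the mouse block (0.116), without female 3 (0.402) or male 3 (0.129), and in thinned wells with no filter (log2 change 0.04, adjusted p = 0.981). In wells with any Pomc count, Irs4 was higher in 6 of 6 mice, at 94.6 ± 54.2 against 42.0 ± 15.8 CPM, but not called (unfiltered log2 change 0.85, adjusted p = 0.313). Its share was 40.4% (27.0 to 54.9) in wells with 1 or 2 Pomc counts and 41.2% (18.4 to 67.1) in the rich ones.

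Cnr1, Mc4r and Lepr had no count in the 17 Pomc-rich wells, which allows a share of up to 17.6%. For Cnr1 the wells with 1 or 2 Pomc counts were at 30.8% (18.7 to 45.1) and those with none at 14.8%. Npy1r and Insr were in 3 of the 17 wells each, Mc3r, Npy5r and Cckar in 2 each, and none of these was called in the unfiltered test.

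**Figure D4:**
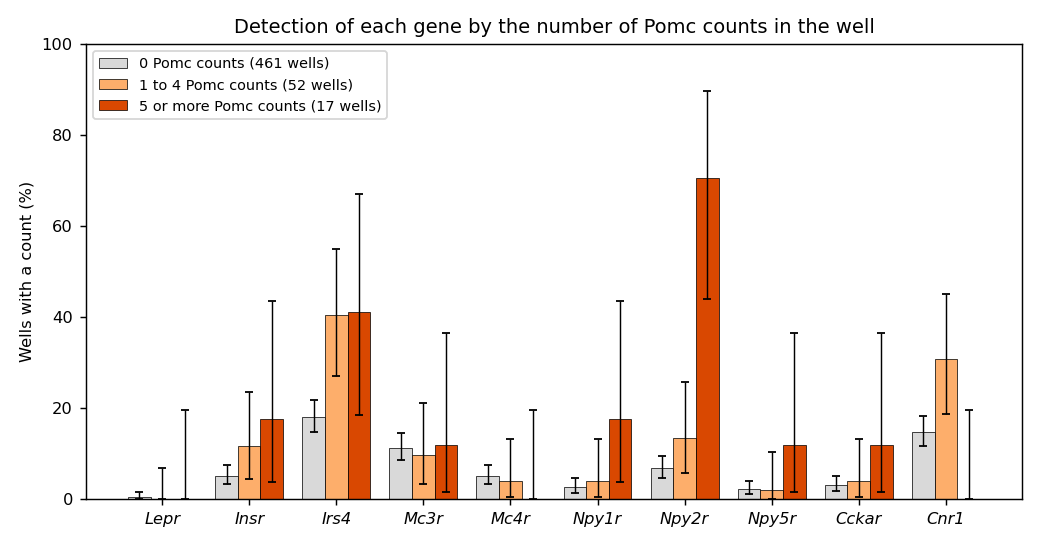
Share of wells with a count of each gene (vertical axis, percent) in wells with 0, 1 to 4 or at least 5 Pomc counts; bars are pooled shares and lines exact 95% binomial intervals. Npy2r stands at 70.6% of the 17 Pomc-rich wells against 6.72% of wells without Pomc, and Cnr1 at 0 against 14.8%.

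Receptors were rarely seen together. No gene of the 10 was detected in 250 wells, 1 in 185, 2 in 69, 3 in 18, 4 in 6 and 5 in 2, and the median depth rose from 4678 counts in wells with none to 9552 in wells with 3. Of the 45 pairs, 33 shared at least 1 well. Of the 12 that never met, 7 involved Lepr, and 4 paired Mc4r with Npy1r, Npy2r, Npy5r or Cckar. The remaining one was Insr with Npy1r. For the Mc4r pairs the product of the shares within mice gives only 0.685 to 2.16 wells, so that 0 is a small shortfall.

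Summed over pairs, 179 co-detections were observed against 141 from the product of the shares within each mouse, a ratio of 1.27 (SD over mice 0.388, n = 6). Female 2 was at 0.457 and the other 5 mice at 1.21 to 1.55. When the product was taken within 4 depth groups per mouse it rose to 168. In thinned wells, 15 co-detections were observed against 18.3, a ratio of 0.821. The excess over the product was thus smaller at matched depth and absent in thinned wells, where counts were few.

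Irs4 and Cnr1 were the most frequent pair, in 26 wells of all 6 mice, against 17.3 from the product and 21.6 within depth groups. In thinned wells the direction turned, with 1 shared well against 2.49. The 26 were 23.4% of Irs4 wells and 31.0% of Cnr1 wells. Irs4 also met Mc3r in 17 wells (13.8 from the product, 18.8 within depth groups) and Npy2r in 16 (11 and 13.5). Npy1r was with Irs4 in 9 of its 17 wells and Npy5r with Irs4 in 7 of its 13, against products of 3.79 and 3.09 wells, or 5.39 and 3.96 within depth groups. Npy2r and Cnr1 shared 4 wells, under the 8.90 from the product and 10.0 within depth groups. No test was made of single pairs.

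**Figure D5:**
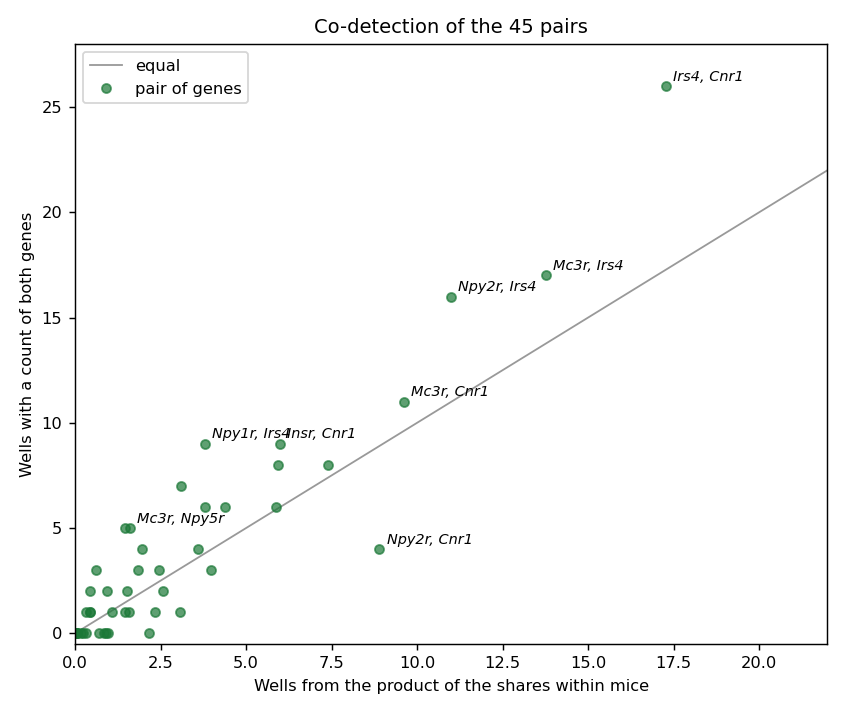
Wells with a count of both genes (vertical axis) against the number from the product of their shares within mice (horizontal axis), 1 point per pair of the 45; the line marks equality. Irs4 with Cnr1 lies above the line at 26 wells, and Npy2r with Cnr1 below it at 4.

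Irs4, Cnr1 and Mc3r had counts in at least 10% of wells and were correlated with the other 6504 such genes across the 530 wells, on log2(counts per 10000 + 1) with the mean of each mouse taken off. The nearest genes were AI467606 (Pearson r = 0.26), Krt18 (0.25) and Fam110a (0.21) for Mc3r. For Irs4 they were Cited1 (0.23), Psd (0.19) and Fam136a (0.19), and for Cnr1 they were Casc3 (0.20), Xylt2 (0.19) and Cul1 (0.18). These wells share plates and sparse counts, and at such r at most 6.74% of the variance is shared, so they only describe the data.

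Other genes of the same pathways were taken from 6 lists covering leptin, insulin, melanocortin, neuropeptide Y and cholecystokinin, and endocannabinoid signalling, and other receptors of energy balance. Between the sexes, 0 of the 51 list genes that passed the filter were called by edgeR, with 1 at an unadjusted p under 0.05. No list gene was called against Nr5a1, Tac1, Pdyn, Sst or Pomc at 1 or more counts in the filtered fits. The unfiltered fits called Agrp lower in males (adjusted p = 0.00028), Cck lower with Nr5a1 (1.1e-09) and with Pomc (6.0e-08), and Npy lower with Tac1 (2.3e-13) and higher with Pomc (0.0254) and Gad1 (7.6e-18). They also called Calcr lower (0.00187) and Crhr2 higher (0.0274) with Pdyn, and Bdnf lower with Pomc (edgeR adjusted p = 0.0253). Agrp, Npy and Cck encode neuropeptides, and Calcr and Crhr2 the calcitonin receptor and a receptor of corticotropin-releasing hormone peptides. Agrp was at 40.7 ± 97.7 CPM (SD, n = 6 mice) in Nr5a1-undetected wells, with 240 CPM in the highest mouse, and at 0 in the detected ones. In the 5 mice of the Gad1 comparison, which leaves out the shallow female 2, Agrp reached at most 11.1 CPM in either group. Its level thus came mainly from female 2. The level of Npy with Pomc was higher in 1 of 6 mice, at 77.6 ± 190 against 81.3 ± 127 CPM (SD, n = 6). With Tac1 the level of Npy was also higher in 1 of 6 mice, at 13.4 ± 30.6 against 128 ± 162 CPM (SD, n = 6). With Gad1 it was higher in 3 of 5 mice, at 357 ± 600 CPM (SD, n = 5) against a mean of 24.2 CPM, and the highest mouse reached 1406 CPM. In each of these Npy comparisons the SD over mice exceeded the mean in both groups. In Gad1-detected wells 1 gene was called in the filtered fit. Bdnf, a neurotrophic factor made by VMH neurons, was at 20.4 ± 33.6 CPM there and at 174 ± 53.8 CPM elsewhere (SD, n = 5 mice; log2 change -2.48, SE 0.425, edgeR adjusted p = 2.2e-06).

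In the Pomc-rich wells, where the filtered fit called 6.71% of all genes, none of the tested leptin (2), insulin (4), melanocortin (5) or endocannabinoid (4) genes was called. Of 6 neuropeptide Y and cholecystokinin genes, 1 was higher and 1 lower. Gnai2, a subunit of inhibitory G proteins, was at 273 ± 153 against 115 ± 22.9 CPM and higher in 4 of 4 mice (log2 change 1.2, adjusted p = 0.00471). Cckbr, the other cholecystokinin receptor, was at 8.32 ± 16.6 against 77.9 ± 32.7 CPM and lower in 4 of 4 (log2 change -3.44, edgeR adjusted p = 0.0130). Among 5 other receptors and ligands, Bdnf was called lower, with 0 counts in the 17 wells against 170 ± 64.0 CPM (SD, n = 4) in those without Pomc. The median log2 change of all 3963 genes in this comparison was -0.07. The list medians were 0.54 for the 2 leptin genes, 0.35 for insulin, 0.11 for melanocortin, -0.38 for neuropeptide Y and cholecystokinin, -0.25 for endocannabinoid and 0.16 for other receptors. With no filter the median of all genes was -0.81, and those of the lists were 0.12, -1.08, -0.55, -0.74, -0.70 and -1.24 in the same order, so that of the 6 only leptin and melanocortin lay above all genes in both fits. That fit called 2.77% of all genes. Of the lists it called Cckbr, Cck and Bdnf lower, Gnas, the stimulatory G protein subunit, lower (log2 change -0.44, adjusted p = 0.0211), and Npy higher (3.34, edgeR adjusted p = 2.0e-16), which had a count in 1 of the 17 wells. Gnai2 was not called there.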

How the data were processed

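Single sorted cells of 6 mice were read as 1 table per mouse of 96 wells. The values deposited by the authors are raw counts, in whole numbers, for each gene in each well. Libraries were made with the BD Precise whole transcriptome kit after papain dissociation, per the labels' protocols. The submitters' processing notes name HTSeq and mm10, without versions. Not given in the sources used here are the aligner, whether counting used strand, and whether a count is a molecule or a read. If counts are reads, several counts in a well can come from 1 molecule, and without strand the reads of overlapping genes cannot be told apart.

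Wells with at least 500 genes with a count and under 25% of counts in mt- genes were kept. No doublet caller was run, and wells were grouped by marker counts, not clustered. Counts were summed per mouse, or per mouse and marker class where both classes held at least 3 wells. The sums were tested with edgeR 4.0.16 in R 4.3.3 (quasi-likelihood, TMM, filterByExpr, Benjamini-Hochberg over all genes tested, threshold 0.05), with the mouse as a block in marker comparisons, where both classes come from the same mice. The marker gene itself was left out of its own comparison. The class with 5 or more Pomc counts was an alternative to that with 1 or more. DESeq2 1.42.0 was an alternative. The edgeR fits of the main comparisons were run on simulated counts of genes that passed the filter, drawn with a single shared dispersion. These simulations did not cover the unfiltered fits or the Pomc-rich wells. The labels give each mouse as a separate sample, and p-values measure the spread between these mice. Thinned wells were drawn at 1986 counts, the 10th percentile of well totals (seed 7), in Python 3.11.15. Exact permutation tests used the 20 assignments of 6 mice. Positions are from the GENCODE annotation of GRCm38.

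The 10 genes, the 6 markers and the gene lists were chosen with earlier results of these data known. Named were all 10 genes and 6 markers, up to 4 called genes per list and comparison in the filtered fits, and the 3 genes with the highest correlation for each gene in at least 10% of wells. List genes called in the unfiltered fits were named after their values were seen. Alternatives numbered 67, and 11 were added after seeing the data.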

Additional observations from a re-analysis of the deposited data

Results flagged for a closer look

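Against Sst, which encodes the somatostatin precursor, the summed levels of Mc3r and Npy2r were lower with Sst in all 3 females and higher in all 3 males. For Mc3r, Sst-detected minus Sst-undetected wells gave a mean difference of -11.8 CPM in females and 12.5 CPM in males. In females 1 to 3 its level was 35.5, 0 and 0 CPM with Sst and 47.7, 6.48 and 16.6 CPM without, and in males 1 to 3 it was 24.8, 17.2 and 50.4 CPM with Sst and 17.2, 16.7 and 21.1 CPM without. For Npy2r the mean differences were -31.2 CPM in females and 17.5 CPM in males. Its level in females was 0, 0 and 9.05 CPM with Sst and 14.0, 32.4 and 56.1 CPM without, and in males 44.6, 17.2 and 25.2 CPM with Sst and 13.8, 9.53 and 11.4 CPM without. The difference between the sexes was not tested. Both pairs were picked by this very split from the 10 genes and the markers compared in all 6 mice. The share of all genes with such a split was not computed. The Sst-detected wells of the females numbered 13 to 15 per mouse and held 3 Mc3r counts and 1 Npy2r count in all, so the female values rest on very few counts. In thinned wells the male direction held for Mc3r only in male 2, and for Npy2r in male 1 and male 3 but not in male 2. There the share of wells with Mc3r was 4.17% with Sst and 4.41% without in male 1, 5.56 and 3.08% in male 2, and 0 and 6.94% in male 3. For Npy2r it was 8.33 and 1.47%, 0 and 1.54%, and 5.26 and 2.78%.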

How the results depend on the processing

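Depth limits the values: most detections are single counts, female 2 lost 38 of its 87 wells to thinning, and at most 4 of the 10 genes passed the filter in any comparison. The choices below changed the counts of all genes called. DESeq2 called 4 genes between the sexes (0 with edgeR), 9 for Nr5a1 (51), 9 for Tac1 (40), 23 for Pdyn (76), 1 for Sst (7), 3 for Pomc (25), 9 for Gad1 (33) and 90 for the Pomc-rich wells (266). With no filter the calls were 20 between the sexes, 74 for Tac1, 18 for Sst, 41 for Pomc, 81 for Gad1 and 408 for the Pomc-rich wells. Thinning left 11, 13, 10, 2, 2, 6 and 33 calls for Nr5a1, Tac1, Pdyn, Sst, Pomc, Gad1 and the Pomc-rich wells. With no replicate block (the mouse not in the model) these were 0, 0, 1, 1, 0, 1 and 85. With 2 or more counts as the marker threshold there were 11 calls for Sst and 184 for Pomc, with 5 or more there were 266 for Pomc, and with 1 or more and no filter 41. Without wells that held a Gad1 count or 5 or more Pomc counts, 24 genes were called for Nr5a1 and 21 for Tac1. Leaving out each mouse gave 0 to 3 calls between the sexes, 24 to 46 for Nr5a1, 20 to 49 for Tac1, 41 to 84 for Pdyn, 6 to 8 for Sst, 13 to 28 for Pomc, 19 to 44 for Gad1 and 83 to 161 for the Pomc-rich wells. The cause of these shifts was not tested.

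Of the 10 genes, 1 had sexes without overlap on thinned shares, 0 on unthinned shares, 0 at 2 or more counts, and 1 to 4 when each mouse was left out, where 2 against 3 mice overlap less easily. Of 60 pairs of gene and marker, 29 had a higher thinned share with the marker, and 13 at 2 or more counts. The co-detection ratio was 1.27, 0.821 in thinned wells and 1.23 to 1.30 without each mouse. Directions that turned were small ones. Mc3r between the sexes, at -0.11, ran from -0.46 to 0.96 when each mouse was left out and was at 0.11 with a replicate block. Its thinned share difference, male minus female, ran from -1.86 to 1.72 percentage points without each mouse and was 5.22 unthinned. Irs4 between the sexes ran from -0.55 to 0.13 without each mouse, and against Gad1 it turned to -0.21 at 2 or more counts. The summed level of Cnr1 stayed lower in males and uncalled under all alternatives run, as did the sign of Npy2r and Irs4 in the Pomc-rich wells. DESeq2 gave no adjusted p for Mc4r against Tac1 and Pdyn, and 1.00 against Sst. The labels do not say that replicate numbers pair the female and male mice. Deviations of same-numbered mice correlated at -0.114, -0.0779 and 0.147, and those of differently numbered mice at -0.103 to 0.197. With the replicate block 0 genes were called, as without it. So few mice cannot decide whether the numbers mark a shared litter or day.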
